A study of Mus musculus with 4 samples.

Results

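Group 2 innate lymphoid cells (ILC2) of the mouse submandibular gland were studied as 196 cells, chosen by their own UMI counts from the 39843 cells that passed the cell filters. A UMI is a molecular barcode that counts 1 captured RNA molecule. A member had at least 2 UMIs of Il1rl1, Gata3 and Areg together with at least 1 of Gata3, at least 1 UMI of Il7r, and no UMI of Cd3d, Cd3e, Cd3g, Ncr1, Cpa3 or Cdh5. The members were 47 cells of the ligated library and 24, 50 and 75 cells of mock 1, mock 2 and mock 3.

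The study profiled stroma-enriched cells of submandibular glands of female C57BL6/J mice by droplet single-cell RNA sequencing. The protocol clipped the ducts of the submandibular and sublingual glands together and harvested both. In the ligated group (1 library), a metal clip closed the ducts for 14 days, and in the mock group (3 libraries) the surgery found the ducts and left them unclipped. In every library, cells carrying EpCAM or Ter119 and dead cells had been depleted before capture. The labels do not say whether the libraries came from separate animals, so the spread between libraries, on which every p-value here rests, may be technical.

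ILC2 are tissue-resident lymphocytes without rearranged antigen receptors. They respond to the alarmins IL-33, TSLP and IL-25, are maintained by IL-7, and are known for making the type 2 cytokines IL-5 and IL-13 and the epidermal growth factor receptor ligand amphiregulin. GATA3 is the transcription factor on which their development and upkeep depend. In several barrier tissues they recruit eosinophils and take part in tissue repair and fibrosis.

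The libraries differed in ways the groups do not explain. By their headers, mock 2 and mock 3 were made with Cell Ranger 7.0.0, whereas mock 1 and the ligated library were made with version 6.0.1. In the ILC2 sums, mock 2 and mock 3 exceeded mock 1 by a median of 0.86 (log2) over the 710 tested genes whose introns exceed 100 kb, while the ligated library stood at -0.01 over mock 1. For 402 tested genes with introns of up to 1 kb these medians were -0.10 and 0.00. For a long-intron gene that was lower in the ligated library than in mock 2 and mock 3, ligation and this difference between libraries cannot be told apart. Over all kept cells, the chi-square divided by its degrees of freedom was 11.8 between mock 2 and mock 3 and 173 to 531 between the other pairs of libraries. Pairs of libraries shared 11 to 61 cell barcodes, at most 0.634% of a library. Libraries held 29897488 to 80187555 UMIs, and the median member had 5060 UMIs in the ligated library, against 4353.5, 5497.5 and 4549 UMIs in mock 1, 2 and 3. Summed over members, the ligated library held 274243 UMIs, against 117861, 301733 and 360675 UMIs in mock 1, 2 and 3.

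Of the 196 members, 11 held many UMIs of another lineage's genes. They were found with a limit of 1% of a member's UMIs in 1 of 9 gene lists of other lineages, which was chosen after the values were seen. Of these mixed members, 7 were in the ligated library, against 1, 2 and 1 in mock 1, 2 and 3. In the ligated library 3 were led by fibroblast genes, at 4.64, 6.34 and 6.82% of their UMIs. The others there were led by epithelial genes (4.85%, with 321 UMIs of the kallikrein gene Klk1), macrophage or monocyte genes (4.05%), ILC1 or NK genes (3.62%, with 41 UMIs of the granzyme gene Gzmc) and erythroid genes (11.3%). A mock 2 member held 48.2% of its UMIs in erythroid genes. Mixed members had a median of 12457 UMIs and the remaining 185 members a median of 4850. Scrublet, which scores cells by their likeness to simulated doublets, placed 4 of the 11 among the barcodes removed in the doublet alternative. Whether the mixed members were droplets with more than 1 cell was not tested, and the share, the gene counts and the list counts are given with and without them where they differ most.

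**Figure D1:**
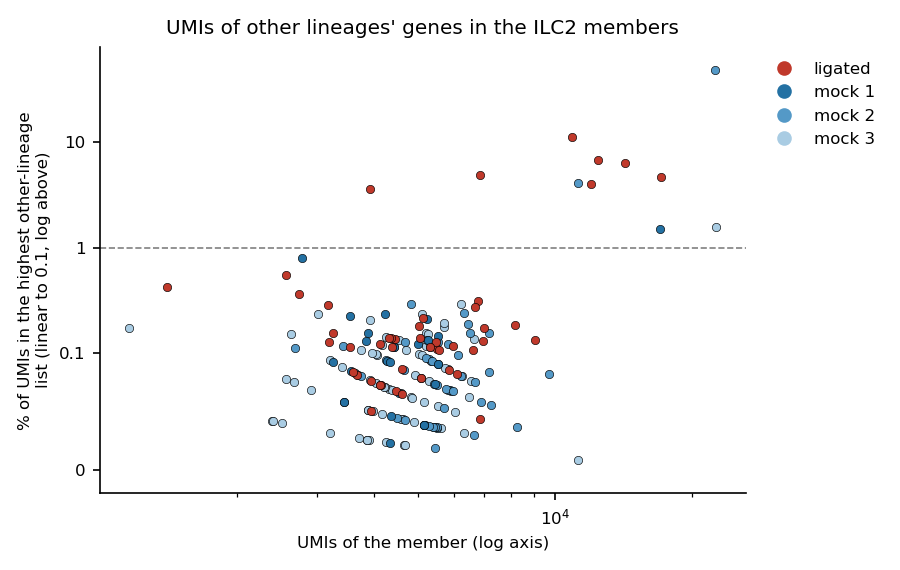
Each point is 1 of the 196 ILC2 members, placed by its UMIs and by the percent of its UMIs in whichever of 9 other-lineage gene lists was highest, and marked by library. The 11 mixed members lie at 1% or above, and 7 of them are ligated.

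The genes that chose the cells are given as a description. Il1rl1, which encodes the IL-33 receptor ST2 (GRCm38 chromosome 1, 40429570 to 40465415, plus strand), was detected in 78.7% of ligated members and in 87.5, 80 and 76.0% of mock 1, 2 and 3 members. Gata3 (chromosome 2, 9857078 to 9890034, minus strand) had 496 CPM (UMIs scaled to the summed UMIs of the library's members) in ligated members, against 806, 789 and 701 CPM in the mocks. Il7r, the IL-7 receptor alpha chain, had 671 CPM in ligated members and 1468, 809 and 904 CPM in mock members. Areg, the amphiregulin gene, was detected in 27.7% of ligated members and in 20.8, 44.0 and 34.7% of mock members. Just inside the limit were 18 members with 2 UMIs of Il1rl1, Gata3 and Areg in sum, and just outside it 8 cells with 1. Just inside the Il7r limit were 26 members with exactly 1 UMI, 11 of them ligated, and just outside it 34 cells with none, 24 of them ligated. Of those 24 ligated cells without Il7r, 8.33% had an Il1rl1 UMI and none had a UMI of Arg1 or Icos. Of the 11 ligated members with 1 Il7r UMI, 81.8% had an Il1rl1 UMI, 63.6% an Arg1 UMI and 36.4% an Icos UMI. A further 18 cells failed only by 1 UMI of a Cd3 gene, 7 of them ligated and 3, 5 and 3 in mock 1, 2 and 3.

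Some genes that the rule did not use were read to check the label. Id2, an inhibitor of E proteins needed by innate lymphoid cells, was detected in 100% of ligated members and in 95.8, 96.0 and 94.7% of mock 1, 2 and 3 members. Its level did not set ILC2 apart from ILC1 or NK cells, as given below. Arg1 (arginase 1), which mouse ILC2 make, was detected in 63.8% of ligated members and in 75.0, 68 and 48.0% of mock members. In endothelial cells (Cdh5 and Pecam1 detected, Ptprc not), which should lack Arg1, the share was 0.247% in the ligated library and 0.582, 1.02 and 0.811% in the mocks, at median depths of 4140 UMIs in the ligated library and 5419.5, 4116 and 3506.5 UMIs in the mocks. Rora, a nuclear receptor needed for ILC2 development, was detected in 53.2% of ligated members and in 45.8, 82.0 and 68% of mock members. Other ILC2 genes were sparser. Of the 196 members, 176 had no UMI of either cytokine gene Il5 or Il13, and 96 had none of either receptor gene Il17rb or Klrg1. Tbx21, the ILC1 and NK factor T-bet, Foxp3 of regulatory T cells, and Il17a and Il22 of ILC3 had no UMI in the 196 members, which allows a share of cells with a UMI of up to 1.53%. Other genes of the ILC3 and regulatory T lists did have UMIs. Scaled as in the comparison of ligated with mock below, the ILC3 list (6 of 11 genes at 0) summed to 1463 CPM in ligated members and 1034, 993 and 926 CPM in mock members. The regulatory T list (2 of 7 genes at 0) summed to 481 CPM in ligated members and 738, 574 and 556 CPM in mock members. Trac, the T cell receptor alpha constant gene, was found in 2.13% of ligated members and in 4.17, 0 and 1.33% of mock members. Trbc2, a beta constant gene, was found in 87.2% of ligated members and in 79.2, 84.0 and 84.0% of mock members. In endothelial cells Trbc2 was found in 4.78% of the ligated library and in 0.504, 0.196 and 0.0901% of the mocks.

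ILC2 were a smaller share of cells in the ligated library than in any of the 3 mock libraries. They were 0.353% of kept cells in the ligated library, with an exact 95% binomial interval of 0.260 to 0.470%. In mock 1 they were 0.523% (0.335 to 0.777%), in mock 2 0.540% (0.401 to 0.712%) and in mock 3 0.591% (0.465 to 0.740%). The intervals cover counting error only, and that of the ligated library overlapped each mock interval. The mock mean was 0.551% ± 0.035 (SD, n = 3), and the ligated share was 0.641 times that mean, below the mock range. With 1 library against 3, an exact permutation test cannot go below p = 0.25, so no p is given. Without the mixed members the share was 0.301% in the ligated library, against 0.501, 0.519 and 0.583% in mock 1, 2 and 3. Without the Il7r criterion it was 0.534% in the ligated library and 0.545, 0.573 and 0.638% in the mocks, so the ratio was 0.912. With every cell thinned to 1500 UMIs it was 0.141% in the ligated library and 0.379, 0.288 and 0.298% in the mocks.

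Among immune cells, which were themselves a larger share of the ligated library, the ILC2 share was lower there by a wider margin. Of cells with a UMI of Ptprc, the pan-leukocyte CD45 gene, ILC2 were 0.630% in the ligated library, against 1.82, 2.78 and 2.53% in mock 1, 2 and 3. Of the cells in the ILC2, ILC1 or NK, and T gates together, ILC2 were 1.53% in the ligated library and 3.93, 5.03 and 5.32% in the mocks. Cells with a Ptprc UMI numbered 6668 of 13304 kept cells in the ligated library, against 1045 of 4589, 1655 of 9251 and 2454 of 12699 in the mocks. The T and the ILC1 or NK gates were also larger shares of the ligated library. T cells (at least 2 UMIs of Cd3 genes) were 8.97% of kept cells in the ligated library and 2.40, 2.27 and 2.05% in the mocks. ILC1 or NK cells (a UMI of Ncr1 and none of a Cd3 gene) were 13.8% in the ligated library and 10.4, 7.95 and 8.46% in the mocks.

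**Figure D2:**
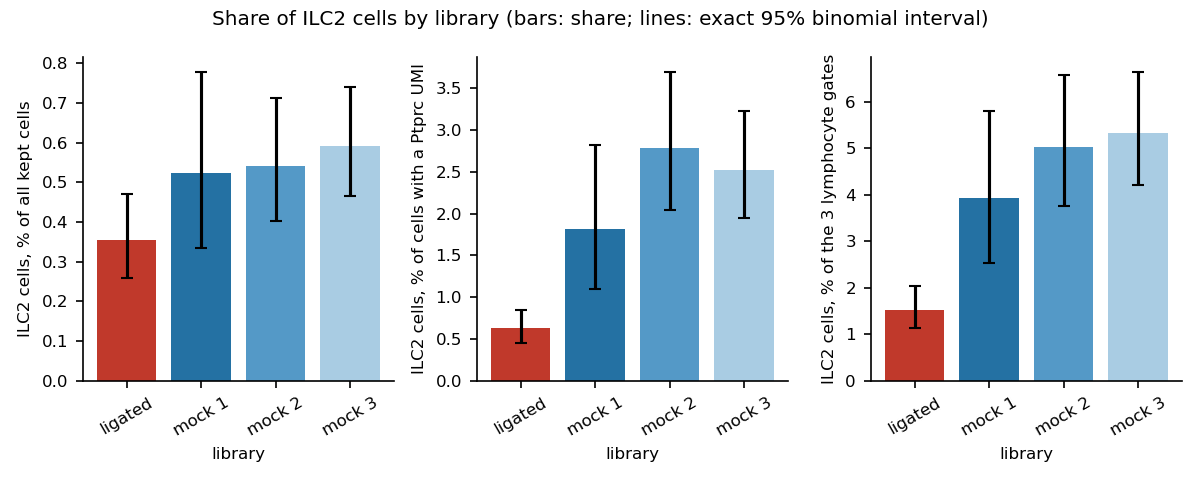
ILC2 as a percent of all kept cells and of narrower sets of cells in each library, with exact 95% binomial intervals for counting error. The ligated library has the lowest ILC2 share of kept cells, at 0.353%, and of Ptprc-detected cells, at 0.630%.

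Ligands of ILC2 receptors were read over all kept cells, where the make-up of cells and RNA per cell cannot be told apart. Il33 stood at 38.5 CPM in the ligated library, against 31.9, 36.7 and 28.0 CPM in mock 1, 2 and 3. Tslp stood at 6.53 CPM in the ligated library and at 4.87, 7.21 and 7.79 CPM in the mocks, and Il7 at 1.87 CPM in the ligated library and 1.78, 2.23 and 1.72 CPM in the mocks. Il25 had no UMI in any library.

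Set against the other lymphocytes of the same libraries, ILC2 had higher levels of most tested neuropeptide and lipid receptors, of Arg1 and of most immediate early genes, while cytokine receptors differed in both directions. UMIs were summed per library and gate and tested with edgeR's quasi-likelihood test with the library as a block, and a gene was called at a Benjamini-Hochberg adjusted p under 0.05. Against ILC1 or NK cells, 822 of 9280 genes tested (8.86%) were higher in ILC2 and 833 (8.98%) lower. Against T cells, 403 of 5566 genes (7.24%) were higher in ILC2 and 420 (7.55%) lower. Genes that any gate used are left out of these counts, but genes that move with them are not, so the counts describe the gates. Without mock 3 the higher counts were 460 against ILC1 or NK cells and 213 against T cells, the lower count against T cells was 222, and without mock 2 the higher count against ILC1 or NK cells was 514. Of the panel of 34 ILC2 genes, 18 of 24 tested were higher and 2 lower than in ILC1 or NK cells, and 13 of 21 tested were higher and 4 lower than in T cells.

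Several cytokine receptors separated ILC2 from both other gates. Il17rb, the IL-25 receptor chain (chromosome 14, 29996135 to 30008896, minus strand), stood at 80.6 CPM in ligated ILC2 and at 50.9, 73.3 and 55.7 CPM in mock ILC2. In ILC1 or NK cells it stood at 0.543 CPM in the ligated library and 0, 0 and 0.283 CPM in the mocks, and in T cells at 3.45 CPM in the ligated library and 7.04, 4.75 and 3.03 CPM in the mocks. No value of either gate reached an ILC2 value, and the log2 fold change was 7.82 ± 0.53 (SE) over ILC1 or NK cells and 4.13 ± 0.31 over T cells (edgeR adjusted p = 1.06e-08 and 4.4e-06). Il9r, the IL-9 receptor (chromosome 11, 32187541 to 32200279, minus strand), stood at 29.3 CPM in ligated ILC2 and 67.9, 86.6 and 61.3 CPM in mock ILC2. It had 1 UMI in all ILC1 or NK cells, and was higher in ILC2 than in T cells by a log2 fold change of 3.16. Il2ra, the alpha chain of the IL-2 receptor, was higher in ILC2 by 4.46 over ILC1 or NK cells and 2.51 over T cells (log2). Il18r1, an IL-18 receptor chain, was lower in ILC2 than in T cells (log2 fold change -3.49). Crlf2, the TSLP receptor chain, was not called against either gate, with log2 fold changes of -0.38 ± 0.17 and -0.08 ± 0.17. Of the list of alarmin and cytokine receptors, 7 of 20 tested were higher and 4 lower than in ILC1 or NK cells, and 4 of 17 were higher and 3 lower than in T cells. Over all tested genes the shares were 8.86% higher and 8.98% lower against ILC1 or NK cells, and 7.24 and 7.55% against T cells.

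Several receptors and enzymes of lipid mediators were higher in ILC2. Ltb4r1, the leukotriene B4 receptor (chromosome 14, 55765962 to 55768494, plus strand), stood at 231 CPM in ligated ILC2 and 399, 223 and 382 CPM in mock ILC2. In T cells it stood at 25.9 CPM in the ligated library and 89.8, 107 and 83.4 CPM in the mocks, and in ILC1 or NK cells it stayed at or below 1.18 CPM. Cysltr1, a cysteinyl leukotriene receptor, stood at 165 CPM in ligated ILC2 and 178, 200 and 167 CPM in mock ILC2, beside at most 21.4 CPM in T cells and 3.17 CPM in ILC1 or NK cells. Alox5, the 5-lipoxygenase that starts leukotriene synthesis, was higher by a log2 fold change of 4.98 over T cells, and Lpcat2, an acyltransferase of platelet-activating factor synthesis, by 3.98. Ptgir, the prostacyclin receptor, was higher by 5.12 over ILC1 or NK cells and by 3.58 over T cells. Calcrl and Ramp1, parts of the CGRP receptor, were higher in both comparisons, by 1.95 and 2.24 over ILC1 or NK cells. Of the list of neuropeptide, adrenergic and lipid receptors, 9 of 13 tested were higher and 2 lower than in ILC1 or NK cells, with a median of 1.95 beside -0.02 over all genes. Against T cells 7 of 10 were higher and none lower, with a median of 1.19 beside 0.01. The 2 lower were Vipr2, a VIP receptor, and Ptger4, a prostaglandin E2 receptor. All tested genes gave 8.86% higher and 8.98% lower against ILC1 or NK cells, and 7.24 and 7.55% against T cells.

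Arg1 (chromosome 10, 24915221 to 24927484, minus strand) stood at 297 CPM in ligated ILC2 and at 323, 213 and 195 CPM in mock ILC2. In ILC1 or NK cells it stayed at or below 3.41 CPM, and in T cells it stood at 4.31 CPM in the ligated library and 29.9, 32.5 and 31.1 CPM in the mocks. Pcsk1, a prohormone convertase, was higher in ILC2 by a log2 fold change of 8.39 over ILC1 or NK cells and 4.56 over T cells. Calca, the calcitonin and CGRP gene, was higher by 6.11 over ILC1 or NK cells, and Slc7a8, an amino acid transporter, by 4.43 over T cells. Ccr9, a chemokine receptor, was higher by 7.18 over ILC1 or NK cells, and Chdh, choline dehydrogenase, by 7.23. Hs3st1, a heparan sulfate sulfotransferase, was higher by 4.14 over T cells. Of the list of ILC2 surface and enzyme genes, 16 of 22 tested were higher and 1 lower than in ILC1 or NK cells (8.86 and 8.98% of all tested genes). Against T cells 10 of 17 were higher and 2 lower (7.24 and 7.55% of all). Cd52, a small glycoprotein of lymphocytes, was lower in ILC2 in both comparisons.

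Several of the highest genes had long introns or rested on single cells. Stab2, a scavenger receptor with 158 kb of intron, stood at 95.3 CPM in ligated ILC2 and 59.4, 546 and 758 CPM in mock ILC2. Dach2, a transcription cofactor with 529 kb of intron, stood at 87.9 CPM in ligated ILC2 and 84.9, 553 and 621 CPM in mock ILC2. Both were higher in ILC2 than in the other gates within each library, but their level differed between the 2 pairs of libraries that share a Cell Ranger version. Hba-a1, a hemoglobin gene, was among the highest genes over T cells at a log2 fold change of 5.36, and its ILC2 levels of 1253 CPM in the ligated library and 178, 6146 and 64.1 CPM in the mocks were highest where the 2 erythroid mixed members lay. The other named genes higher than in ILC1 or NK cells were Gm6213, 1700113H08Rik, 4932438H23Rik and B630019A10Rik (log2 fold changes of 6.78 to 7.92). The others over T cells were Stxbp6 (5.63, 217 kb of intron), Ccdc184 (4.81) and Mctp1 (4.72, 639 kb of intron).

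The named genes lowest in ILC2 had no UMI in any member. Klra4, which encodes an NK receptor of the Ly49 family, had none in ILC2 and stood at 482 CPM in ligated ILC1 or NK cells and 837, 1061 and 1059 CPM in mock ones. With 3 UMIs over all members as the floor, it was at least 279-fold lower in ILC2. Klri2, Tmem163, Samd3, Gm2682, Cox6a2, Sh2d1a (the adaptor SAP) and Aoah (a lipopolysaccharide-inactivating hydrolase) were at least 32.6-fold lower than in ILC1 or NK cells. Against T cells, Cd8a was at least 111-fold lower and Cd28, the costimulatory receptor, at least 33.3-fold. Gm2682, Cd160, Gramd3, Gm8369, Sh2d1a and Klra4 were at least 26.9-fold lower than in T cells. Of the ILC1 or NK list, 19 of 19 tested genes were lower than in ILC1 or NK cells, and of the T cell list 12 of 12 were lower than in T cells. Beside them, 8.98 and 7.55% of all tested genes were lower in these comparisons. The gates were set by Ncr1 and Cd3 UMIs, so these list counts describe the gates and do not test the label.

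**Figure D3:**
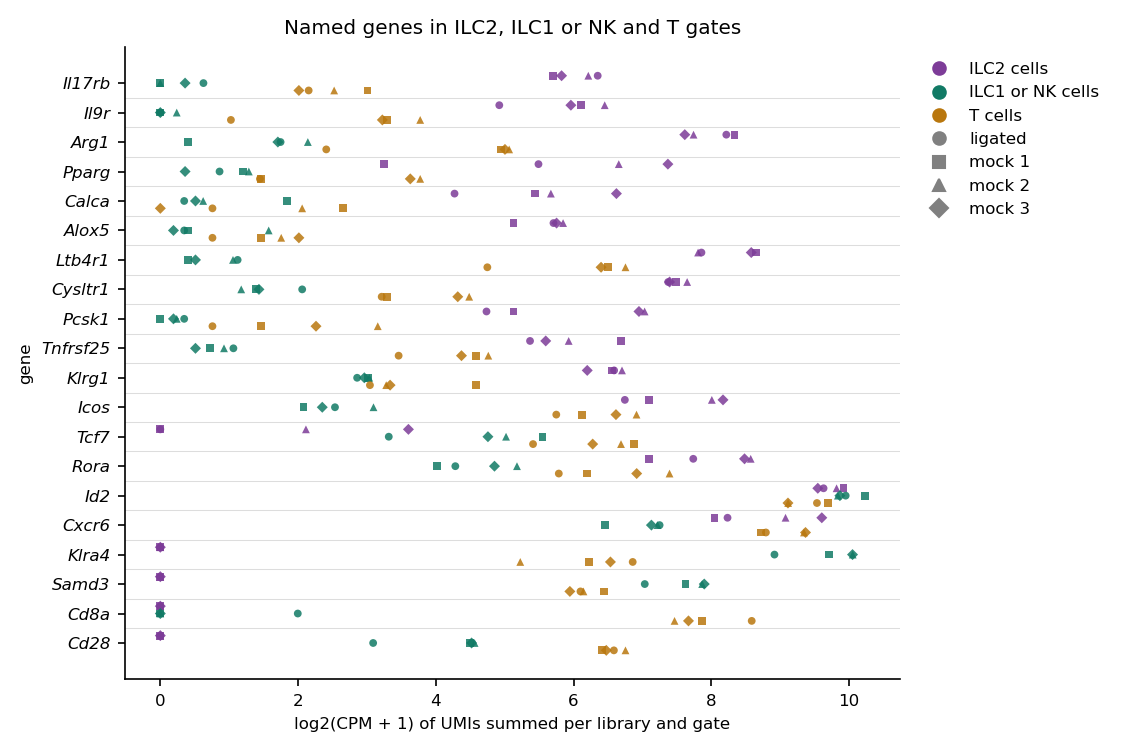
Log2(CPM + 1) of 20 genes in ILC2, ILC1 or NK cells and T cells, with 1 point per library and gate. ILC2 points lie right of both other gates for Il17rb, Il9r and Arg1, and at 0 for Klra4, Samd3, Cd8a and Cd28.

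Transcription factors and activation genes gave a mixed pattern. Bcl11b, a factor shared by T cells and ILC2, was higher by a log2 fold change of 4.24 than in ILC1 or NK cells and did not pass against T cells (-0.06 ± 0.16). Pparg, a lipid-sensing nuclear receptor, was higher by 6.44 over ILC1 or NK cells, and Rora by 3.51 over ILC1 or NK cells and 1.49 over T cells. Tcf7, a T cell and progenitor factor, was lower in ILC2 in both comparisons (-2.42 and -4.03). Id2 did not pass in either (-0.23 ± 0.10 and 0.38 ± 0.12). Of the immediate early genes, which stress in cell isolation can also induce, 17 of 23 were higher and 2 lower than in ILC1 or NK cells, and 17 of 20 were higher and 2 lower than in T cells. Fos was higher by 2.79 and 2.37 over the 2 gates, whereas Nr4a2 and Dusp2 were the 2 lower ones. Of the TNF receptor and costimulatory family, Icos (5.28 and 1.23) and Tnfrsf25, the receptor of TL1A (6.09 and 1.60), were among 5 of 12 higher than ILC1 or NK cells, with 7 lower. Against T cells 3 of 12 of that family were higher and 7 lower. Both lists stand beside 8.86% higher and 8.98% lower of all genes tested against ILC1 or NK cells, and 7.24 and 7.55% against T cells. Klrg1, an inhibitory receptor of mature ILC2, was higher by 3.74 and 3.22.

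Between ligated and mock ILC2, few genes were called, and most of them are known from fibroblasts, glandular epithelium or cytotoxic lymphocytes. Of 5330 genes tested, 13 (0.244%) were higher in ligated ILC2 and 0 (0.0%) lower at an adjusted p under 0.05 by edgeR's quasi-likelihood test. At an unadjusted p under 0.05, 174 were higher and 215 lower, and DESeq2 called 17 higher and 0 lower. With 1 ligated library the spread came from the mocks alone, and the test assumes that a ligated library varies like them. The counts rested on single mocks: without mock 1 there were 276 higher and 324 lower, without mock 2 36 higher and 0 lower, and without mock 3 5 higher and 0 lower. The 13 remained called without mock 1 or mock 2, and 4 of them without mock 3.

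CPM in the comparison of ligated with mock are scaled by edgeR's TMM factors and so differ slightly from the levels above. Mgp, the matrix Gla protein of fibroblasts and vessels (chromosome 6, 136872435 to 136875823, minus strand), stood at 5069.6 CPM in ligated ILC2 and at 9.23, 0 and 8.87 CPM in mock 1, 2 and 3 (log2 fold change 9.72 ± 0.68, adjusted p = 0.0037, edgeR). Of its 1296 ligated UMIs, 96.1% came from 3 members. Bgn (biglycan, a matrix proteoglycan), Cilp (a cartilage matrix protein), Cxcl14, Apod, Cdh11 (a fibroblast cadherin), Emp1, Col15a1 and Spp1 (osteopontin) had 85.1 to 98.1% of their ligated UMIs in 3 members. Cilp had 157 ligated UMIs and none in the mocks, at least 149-fold higher with 3 UMIs over the mocks as the floor. The other log2 fold changes of these genes ran from 5.73 to 8.99 (adjusted p = 0.0037 to 0.0297). The granzyme gene Gzmc had 41 of 55 ligated UMIs in 1 member (log2 fold change 6.82), and Klk1, the call beyond the 12 that the naming rule allows, 321 of 366 in 1 member (4.22). Without the mixed members, 47 of the 1296 ligated UMIs of Mgp, 13 of 242 of Bgn, 14 of 55 of Gzmc and 42 of 366 of Klk1 remained.

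Ccl5, a chemokine made mainly by NK and effector T cells (chromosome 11, 83525778 to 83530518, minus strand), had 56.1% of its 98 ligated UMIs in 3 members, the lowest such share among the 13. It stood at 383 CPM in ligated ILC2 and at 9.23, 24.7 and 11.8 CPM in mock ILC2 (log2 fold change 4.52 ± 0.49, adjusted p = 0.0154, edgeR). With the mixed members left out it stood at 247 CPM in ligated ILC2 and 11.3, 15.3 and 12.8 CPM in the mocks (4.13 ± 0.47, adjusted p = 0.0048). The call was lost without mock 3 (adjusted p = 0.127). Ccl5 was detected in 60.0% of ligated members other than mixed ones and in 4.35, 6.25 and 4.05% of mock ones. In endothelial cells it was detected in 50.5% of the ligated library and in 4.42, 2.01 and 1.65% of mock 1, 2 and 3. The part of free RNA in its level was not tested.

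Without the mixed members, 4 of 4417 genes tested (0.0906%) were called, all higher in ligated ILC2. Beside Ccl5 and Mgp these were Cd74, the MHC class II invariant chain, and Apoe, apolipoprotein E, both named after their values were seen. Mgp stood at 264 CPM in ligated ILC2 and 0, 0 and 9.62 CPM in the mocks (log2 fold change 5.70, adjusted p = 0.0048). Cd74 stood at 292 CPM in ligated ILC2 and 11.3, 26.8 and 35.3 CPM in the mocks (3.35, adjusted p = 0.0117), and Apoe at 163 CPM in ligated ILC2 and 11.3, 3.83 and 12.8 CPM in the mocks (4.08, adjusted p = 0.0440). The shares of cells with a UMI of these genes in the other gates stand beside those in ILC2. Mgp was detected in 57.5% of ligated and 0, 0 and 2.70% of mock ILC2, in 66.3% of ligated and 4.41, 2.72 and 3.54% of mock ILC1 or NK cells, and in 61.8% of ligated and 5.45, 3.33 and 1.92% of mock T cells. Cd74 was detected in 50.0% of ligated and 4.35, 14.6 and 8.11% of mock ILC2, and in 36.4% of ligated and 6.09, 6.39 and 6.61% of mock ILC1 or NK cells. Apoe was detected in 52.5% of ligated and 4.35, 2.08 and 5.41% of mock ILC2, and in 59.9% of ligated and 9.66, 8.84 and 6.24% of mock ILC1 or NK cells. Whether free RNA set these levels was not tested.

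**Figure D4:**
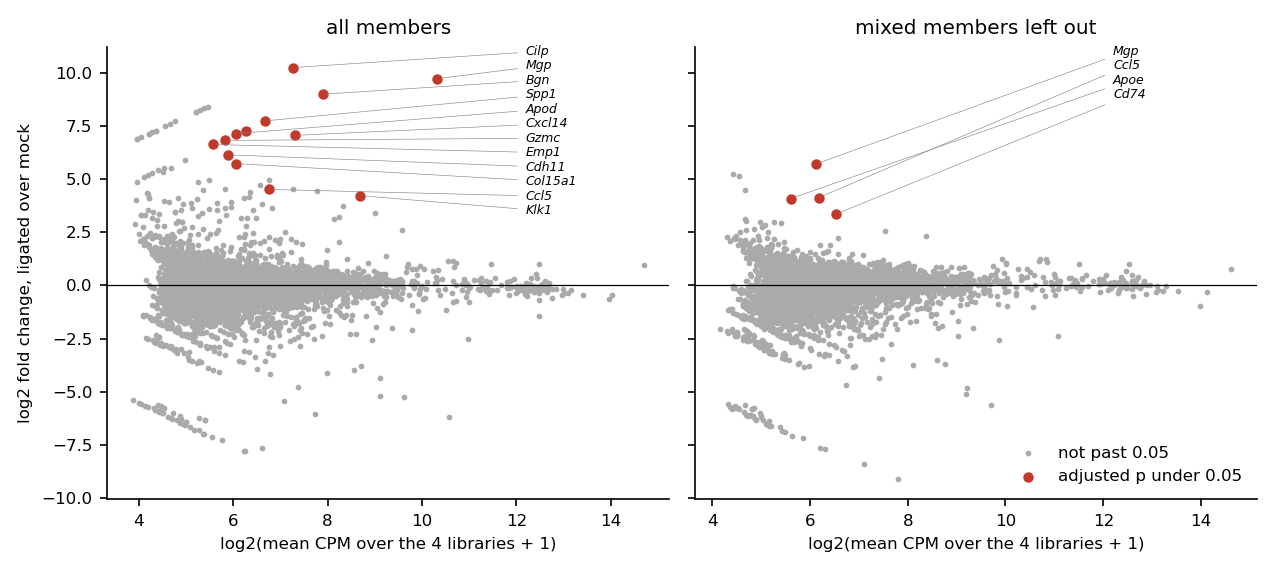
Log2 fold change of each tested gene in ligated over mock ILC2 against log2(mean CPM + 1), with all members on the left and mixed members left out on the right. The 13 called genes on the left and 4 on the right, in red, are all above 0.

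No gene was called lower in ligated ILC2. Of the genes with at least 20 UMIs and a ligated CPM below each mock, the 12 with the smallest p are given with their values. Kit, the stem cell factor receptor (chromosome 5, 75574916 to 75656722, plus strand), stood at 7.82 CPM in ligated ILC2 and at 83.1, 66.9 and 47.3 CPM in mock 1, 2 and 3 (log2 fold change -2.92 ± 0.76, adjusted p = 0.504, edgeR). Without the mixed members it stood at 11.2 CPM in ligated and 78.8, 65.1 and 51.3 CPM in mock ILC2. The ligated level of Kit rested on 2 UMIs, under the floor of 3 UMIs. Tnfaip3, the NF-kB inhibitor A20, stood at 50.9 CPM in ligated ILC2 and 138, 250 and 186 CPM in the mocks (-1.93, adjusted p = 0.537). Per1, a clock gene that glucocorticoids induce, stood at 3.91 CPM in ligated ILC2 and 36.9, 56.4 and 53.2 CPM in the mocks (-3.54, adjusted p = 0.470). Tnfaip3 and Per1 were also lower in mock 1 than in mock 2 and mock 3, and Per1 had 1 UMI in ligated ILC2, under the floor of 3 UMIs. Stxbp6 (217 kb of intron) stood at 39.1 CPM in ligated ILC2 and 185, 155 and 124 CPM in the mocks, Fam107b (207 kb) at 66.5 CPM in ligated and 240, 222 and 299 CPM in mock ILC2, and Dtnb (200 kb) at 15.6 CPM in ligated and 83.1, 81.0 and 121 CPM in mock ILC2. Prkce (483 kb of intron) had no UMI in ligated ILC2 and 3, 28 and 29 UMIs in mock 1, 2 and 3. 2610035D17Rik (156 kb) had none in ligated ILC2 and 3, 14 and 16 UMIs in the mocks. With the mocks pooled and 3 UMIs as the floor, they were at least 7.03-fold and 3.86-fold lower. The pool came mostly from mock 2 and mock 3. Gm6213, Gm10076, Impact and Ripor2 (140 kb of intron) had log2 fold changes of -4.15, -2.50, -3.60 and -3.13 and stood higher in mock 2 and mock 3 than in mock 1. Among all tested genes, 1449 (27.2%) had a ligated CPM above the mock range and 1329 (24.9%) one below it. Of those with over 100 kb of intron, 41.7% lay below the range and 10.4% above.

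The panel of 34 ILC2 genes held no called gene between ligated and mock ILC2. Of 23 tested, 4 lay above the mock range, beside 27.2% of all tested genes, and 11 below it, beside 24.9%. Their median log2 fold change was -0.60, and their adjusted p ran from 0.642 to 0.983. Without the mixed members 5 of 23 were above and 9 below, at a median of -0.43, beside 1172 of 4417 genes above (26.5%) and 1188 below (26.9%).

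Type 2 cytokines were sparse in every library. Il5 had 1 UMI in ligated ILC2 and 1, 7 and 8 in mock 1, 2 and 3 (3.91 CPM in ligated and 9.23, 24.7 and 23.7 CPM in mock ILC2) and was too low to test. Il13 had 11 UMIs in 1 ligated member, and 4, 2 and 2 UMIs in 2, 1 and 1 mock members, giving 43.0 CPM in ligated ILC2 and 36.9, 7.05 and 5.92 CPM in the mocks (log2 fold change 1.71, adjusted p = 0.794). The 2 cytokines were found together in 2 of 196 members. Il4 had no UMI in ligated ILC2 and stood at 9.23, 21.1 and 47.3 CPM in mock ILC2 (adjusted p = 0.672), and Il9 had none in any member. Csf2, the GM-CSF gene, stood at 7.82 CPM in ligated ILC2 and at 18.5, 88.1 and 109 CPM in the mocks (-3.27, adjusted p = 0.642). With 2 UMIs in ligated ILC2 and 2 in mock 1, both under the floor of 3 UMIs, their order was not detectable at this depth. Il6 stood at 7.82 CPM in ligated and 0, 3.52 and 5.92 CPM in mock ILC2, and Penk, the enkephalin gene, had 1 UMI, in a ligated member. Calca stood at 19.6 CPM in ligated and 46.1, 52.8 and 104 CPM in mock ILC2 (-1.84, adjusted p = 0.672). Of the cytokine list, 13 genes were tested and Ccl5 alone was called, with 4 above the mock range (27.2% of all tested genes), 5 below it (24.9% of all) and a median of -0.17 beside -0.04 over all genes.

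Receptors of alarmins and other cytokines lay on both sides of the mock range. Il17rb stood at 86.1 CPM in ligated ILC2 and 55.4, 77.5 and 59.2 CPM in the mocks, and Crlf2 at 97.8 CPM in ligated and 64.6, 74.0 and 79.9 CPM in mock ILC2. Both were above the highest mock, and the fitted log2 fold change over the mock group was 0.40 for each (adjusted p = 0.854 and 0.850). Il2ra was below it at 125 CPM in ligated and 388, 204 and 163 CPM in mock ILC2 (-0.95), as was Il9r at 31.3 CPM in ligated and 73.8, 91.6 and 65.1 CPM in mock ILC2 (-1.28). Il18r1 stood at 19.6 CPM in ligated and 0, 21.1 and 14.8 CPM in mock ILC2. Of the receptor list, 0 of 17 tested were called, with 7 above and 4 below the mock range, where 27.2 and 24.9% of all tested genes lay. Without the mixed members 5 of 14 were above and 6 below, where 26.5 and 26.9% of all lay. The median log2 fold change of the list was 0.19 with all members and -0.19 without the mixed ones.

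The costimulatory receptors of the panel were below or within the mock range, and none was called. Icos stood at 113 CPM in ligated ILC2 and 148, 271 and 305 CPM in the mocks (log2 fold change -1.12, adjusted p = 0.672). Tnfrsf18, the GITR gene, stood at 176 CPM in ligated and 203, 250 and 269 CPM in mock ILC2, and Tnfrsf25 at 43.0 CPM in ligated and 111, 63.4 and 50.3 CPM in mock ILC2. Klrg1 stood at 102 CPM in ligated and 102, 109 and 76.9 CPM in mock ILC2, within their range. Of that family, 0 of 7 tested were called, with 1 above and 4 below, beside 27.2% of all tested genes above and 24.9% below.

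Receptors of nerve and lipid signals gave 0 calls among 11 tested, with none above the mock range (27.2% of all tested genes) and 6 below it (24.9% of all). Without the mixed members 0 of 11 were above (26.5% of all) and 3 below (26.9% of all), and Calcrl lay within the range. Ptgir stood at 23.5 CPM in ligated ILC2 and 138, 56.4 and 47.3 CPM in the mocks (log2 fold change -1.60, adjusted p = 0.716), and Calcrl at 39.1 CPM in ligated and 46.1, 74.0 and 53.2 CPM in mock ILC2. Nmur1, the neuromedin U receptor of ILC2, stood at 11.7 CPM in ligated and 0, 21.1 and 8.87 CPM in mock ILC2. Vipr2 stood at 11.7 CPM in ligated and 18.5, 24.7 and 14.8 CPM in mock ILC2. Ptgdr2, the prostaglandin D2 receptor known from human ILC2, had no UMI in any member.

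Transcription factors and enzymes of ILC2 identity gave no call. Arg1 stood at 317 CPM in ligated ILC2 and 351, 225 and 207 CPM in the mocks (log2 fold change 0.31, adjusted p = 0.869), and Id2 at 845 CPM in ligated and 1052, 955 and 793 CPM in mock ILC2. Bcl11b stood at 211 CPM in ligated and 166, 225 and 281 CPM in mock ILC2. Rora (721 kb of intron) stood at 227 CPM in ligated and 148, 402 and 379 CPM in mock ILC2, and Pparg (126 kb) at 46.9 CPM in ligated and 9.23, 106 and 175 CPM in mock ILC2. Tcf7 had no UMI in ligated ILC2 or mock 1 and stood at 3.52 and 11.8 CPM in mock 2 and 3. Of the transcription factor list 0 of 18 tested were called, and of the surface and enzyme list 0 of 20, beside 0.244% of all tested genes. The former had 5 above the mock range and 4 below, and the latter 6 above and 3 below, beside 27.2 and 24.9% of all. Without the mixed members they had 4 of 17 above and 4 below, and 9 of 18 above and 2 below, beside 26.5 and 26.9%.

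Residency genes lay on both sides of the mock range. Cd69, which retains lymphocytes in tissue and also marks activation, stood at 1291 CPM in ligated ILC2 and at 932, 687 and 648 CPM in mock 1, 2 and 3, above each mock (log2 fold change 0.78, adjusted p = 0.672). Cd69 stood at 1656 CPM in ligated and 1103, 690 and 676 CPM in mock ILC2 without the mixed members (1.03, adjusted p = 0.524). Cxcr6, a tissue homing receptor, stood at 321 CPM in ligated and 286, 571 and 825 CPM in mock ILC2, and Ccr8 at 3.91 CPM in ligated and 9.23, 120 and 71.0 CPM in mock ILC2 (-4.09, adjusted p = 0.645). Ccr8 had 1 UMI in ligated ILC2 and 1 in mock 1, under the floor of 3 UMIs, against 34 and 24 UMIs in mock 2 and mock 3. S1pr1, the egress receptor, stood at 23.5 CPM in ligated and 9.23, 3.52 and 2.96 CPM in mock ILC2. It had 6 UMIs in ligated ILC2 and 1 in each mock, under the floor of 3 UMIs, and was too low to test. Klf2, the transcription factor of S1pr1, stood at 93.9 CPM in ligated and 212, 59.9 and 29.6 CPM in mock ILC2. Of the residency and egress list, 0 of 16 tested were called, with 6 above and 5 below, beside 27.2% of all tested genes above and 24.9% below.

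**Figure D5:**
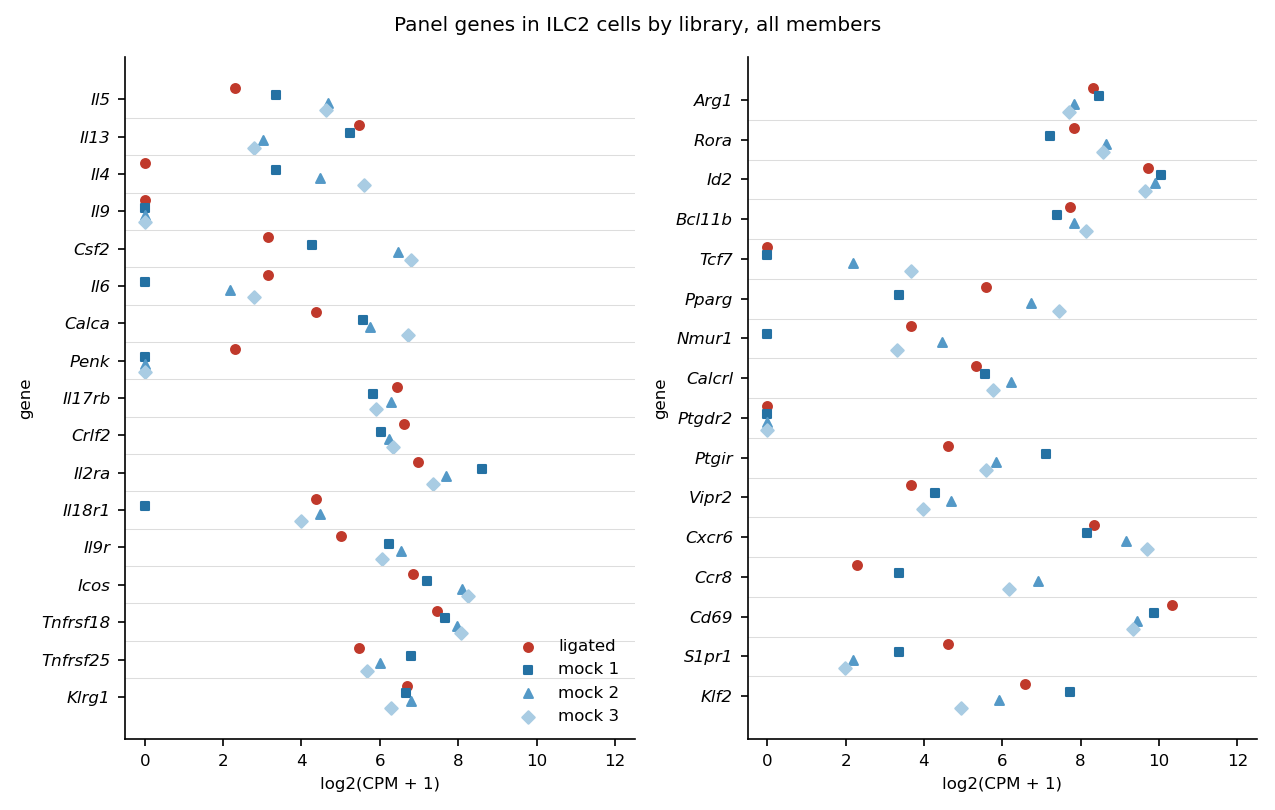
Log2(CPM + 1), scaled by TMM, of panel genes in ILC2, with 1 point per library and all members in. Ligated Icos lies below each mock and ligated Cd69 above, and no panel gene passed the test.

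The heat shock, interferon, MHC class I, immediate early, NF-kB, glucocorticoid and STAT5 lists held no called gene between ligated and mock ILC2. Their counts outside the mock range stand beside 27.2% of all tested genes above it and 24.9% below it, or 26.5 and 26.9% without the mixed members. Of the heat shock list 6 of 11 tested were above the mock range and 1 below, at a median log2 fold change of 0.40, and without the mixed members 7 were above and 0 below, at 0.58. Of the interferon-stimulated list 8 of 19 were above and 2 below at 0.12, and without the mixed members 9 of 15 were above and 1 below at 0.33. Of the MHC class I list 5 of 14 were above and 0 below at 0.26, and without the mixed members 8 and 0 at 0.43. Immediate early genes had 6 of 21 above and 3 below, and the immediate early sum stood at 12905 CPM in ligated ILC2 and 14351, 9497 and 7490 CPM in the mocks. The ligated library lay between mock 1 and mock 2. Of the NF-kB list 6 of 16 were above and 7 below at a median of -0.36, of the glucocorticoid-responsive list 0 of 12 were above and 2 below at -0.37, and of the STAT5 and cytokine feedback list 6 of 15 were above and 4 below at 0.05. Ribosomal protein genes had 9 of 84 above and 39 below with all members, and 19 above and 22 below without the mixed ones. The ILC1 or NK list, with Ccl5 and Gzmc called, summed to 1608 CPM in ligated ILC2 and 55.4, 275 and 219 CPM in the mocks, and without the mixed members to 702 CPM in ligated and 67.5, 46.0 and 48.1 CPM in mock ILC2. Tbx21 had no UMI in any member. The fibroblast list, with Mgp and Spp1 called, summed to 10343 CPM in ligated and 2363, 3.52 and 17.7 CPM in mock ILC2, and without the mixed members to 522 CPM in ligated and 33.8, 0 and 19.2 CPM in mock ILC2. The MHC class II list summed to 943 CPM in ligated and 64.6, 3030 and 1160 CPM in mock ILC2, and without the mixed members to 544 CPM in ligated and 78.8, 107 and 119 CPM in mock ILC2. The part of these other-lineage UMIs in the values above was not tested.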

How the data were processed

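The authors deposited raw UMI counts per gene and cell barcode as sparse matrices, 1 per library. Per the file headers they were made with Cell Ranger 6.0.1 (ligated, mock 1) and 7.0.0 (mock 2, mock 3), and the submitters' processing notes name Cell Ranger 7.0.1 and mm10. Matrices were joined on 30406 shared gene IDs. Barcodes with under 500 UMIs, under 300 genes or over 15% mitochondrial UMIs were left out, with no doublets removed in the main results. The ILC2 members, the 30 gene lists (3 of 458 listed genes unmatched) and the panel of 34 genes were chosen with earlier results of these data known.

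UMIs were summed per library and gate and tested with edgeR 4.0.16 in R 4.3.3 (TMM, filterByExpr, quasi-likelihood F test, Benjamini-Hochberg, threshold 0.05), with the library as a block between gates (3 residual degrees of freedom). The code was tested on simulated data. Named genes are the panel, the 12 highest and 12 lowest genes between ligated and mock, and the 12 highest and 8 lowest called genes against each other gate. Those between ligated and mock had to lie outside the mock range. They were filled to 12 by the smallest p among such genes with at least 20 UMIs. Those against a gate had to change alike in all 4 libraries with at least 20 UMIs. List members are named where called or of high level, and some genes that the rule would name are not reported here. Alternatives used DESeq2 1.42.0, RLE size factors, other count filters, gates and depths, Scrublet in scanpy 1.11.5 (0.8% per 1000 barcodes) and left-out libraries. Intervals (exact binomial, 95%) and floors of 3 UMIs cover counting error only. Positions and intron lengths come from the GENCODE annotation of GRCm38.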

Additional observations from a re-analysis of the deposited data

How the results depend on the processing

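The ILC2 share was lower in the ligated library than the mock mean under every alternative run, with a ratio of 0.641 in the main result and 0.625 to 0.664 with 1 mock left out. It was 0.265 among Ptprc-detected cells, 0.321 among the 3 lymphocyte gates, 0.912 without the Il7r criterion, 0.440 with cells thinned to 1500 UMIs and 0.563 without the mixed members. Each denominator run included immune cells, which were a larger share of the ligated library. The endothelial gate, not run as a denominator, held 3643 ligated cells, against 2578, 5112 and 6656 cells of mock 1, 2 and 3. Per endothelial cell, the ligated library thus held more ILC2 than any mock (47 members, against 24, 50 and 75 in the mocks). The direction therefore depended on the denominator.

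Of the 13 genes higher in ligated ILC2 and 0 lower, counts ran from 5 to 276 higher and 0 to 324 lower with 1 mock left out. With no low count filter there were 162 higher and 86 lower, and with a Cell Ranger version term, whose spread comes from mock 2 against mock 3 alone, 77 higher and 41 lower. Requiring Il1rl1 gave 24 higher. Leaving out members with a UMI of Pecam1, Col1a1, Lyz2, Cd79a or Epcam gave 6 higher and 1 lower. Leaving out the mixed members, chosen after the data were seen, gave 4 higher, and leaving out these and mock 1 gave 133 higher and 265 lower. The causes were not tested. Gzmc lost its call with DESeq2, and Gzmc and Klk1 lost theirs with mock 2 and mock 3 summed.

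Against ILC1 or NK cells, 822 genes were higher (460 to 765 with 1 library left out, 453 with no library term) and 833 lower (568 to 815 with 1 left out, 462 with no library term, 1367 with at least 20 UMIs, 1513 with no filter). Against T cells, 403 were higher (213 to 394 with 1 left out, 180 with no library term) and 420 lower (222 to 412 with 1 left out, 201 with no library term, 646 with at least 20 UMIs, 840 with no filter). No called value that was recomputed changed direction. No paired analysis was possible because the groups share only 1 replicate number. With 24 to 75 members a library, a gene below 8.32 to 25.5 CPM was under the floor of 3 UMIs, so low cytokines and receptors could not be told from 0.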
